A study of Mus musculus with 83 samples.

Results

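The unfolded protein response (UPR) was followed through 34 mouse genes of the endoplasmic reticulum (ER). They comprised 12 stress sensors, transcription factors and translation regulators, 12 chaperones and co-factors, 3 protein disulfide isomerases and 7 genes of ER-associated degradation. The genes were named by symbol, and each was found among the 21572 gene rows of the deposited table. RNA had been read from 83 single ovarian follicles of wild-type CD-1 mice, an outbred strain. Vitrified follicles, which had been cooled to a glass without ice crystals and warmed again, numbered 15 at 0 h, 14 at 1 h, 7 at 4 h and 12 at 8 h after human chorionic gonadotropin (hCG), and fresh follicles numbered 18, 6, 7 and 4 at the same times. Before that, every follicle of either kind had grown for 8 days in an alginate bead with recombinant follicle stimulating hormone (rFSH), and follicles 300 to 350 µm wide were then freed with alginate lyase. The ovulatory medium was the same for both kinds and held 1.5 IU/ml hCG, 10 ng/ml EGF and 10 mIU/ml rFSH. Follicles at 0 h had no time in it. The age of the mice, the animal behind each follicle and the culture runs do not stand in the labels. A p-value therefore measures how single follicles spread, and some of that spread may be technical.

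When unfolded protein builds up in the ER, the sensors IRE1 (gene Ern1), PERK (Eif2ak3) and ATF6 are released from the chaperone BiP (Hspa5). IRE1 splices Xbp1 mRNA, PERK phosphorylates eIF2α and so favours translation of ATF4, and ATF6 is cut in the Golgi to a transcription factor. Their targets are chaperones, disulfide isomerases and the machinery that pulls misfolded protein out of the ER for the proteasome. In the follicle, hCG acts on the receptor for luteinizing hormone, and granulosa cells answer with secreted growth factors, matrix and steroids before ovulation. The counts are per gene, so the spliced form of Xbp1, protein levels and phosphorylation were not measured.

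The letters through which these factors are known to act can be read in promoters of 3 genes whose counts are followed below: Hspa5, the general chaperone; Herpud1, a degradation component; and Chac1, which degrades glutathione. Each line gives the 250 bases before the start of the gene in RefSeq on GRCm38.p6, read 5′ to 3′ on the gene's own strand. Capitals mark motif matches: TGACGTG, the UPR element, and the ER stress response element (ERSE), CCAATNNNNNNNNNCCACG, in Hspa5; TTGCATCA, a C/EBP-ATF element, and ERSE-II, ATTGGNCCACG, in Herpud1; and the C/EBP-ATF element in Chac1.
Hspa5, chr2:34771840-34772089, plus strand: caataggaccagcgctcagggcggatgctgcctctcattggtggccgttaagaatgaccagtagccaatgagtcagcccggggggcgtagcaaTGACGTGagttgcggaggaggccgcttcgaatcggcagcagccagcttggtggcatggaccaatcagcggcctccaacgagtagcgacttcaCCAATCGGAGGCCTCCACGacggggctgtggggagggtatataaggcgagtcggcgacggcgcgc
Herpud1, chr8:94386179-94386428, plus strand: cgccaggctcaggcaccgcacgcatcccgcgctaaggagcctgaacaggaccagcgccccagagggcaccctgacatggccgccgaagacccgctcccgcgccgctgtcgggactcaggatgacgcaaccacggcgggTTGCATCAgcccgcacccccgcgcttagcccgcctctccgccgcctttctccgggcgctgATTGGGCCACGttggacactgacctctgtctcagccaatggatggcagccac
Chac1, chr2:119350992-119351241, plus strand: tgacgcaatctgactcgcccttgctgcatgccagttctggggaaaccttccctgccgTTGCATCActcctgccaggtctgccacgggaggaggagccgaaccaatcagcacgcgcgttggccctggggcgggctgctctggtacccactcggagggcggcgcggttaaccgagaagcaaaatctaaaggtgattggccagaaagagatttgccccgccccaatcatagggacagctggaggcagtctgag
The same letters were searched on both strands of the 300 bases from 250 before to 50 after the start of 32851 RefSeq promoters, which include 29 of the 34 genes. ERSE was found in 39 promoters (0.119%), among them those of Calr, Canx, Creld2, Dnajc3, Hsp90b1, Hspa5, Pdia6 and Syvn1. ERSE-II was found in 12 promoters (0.037%), among them Dnajb11 and Herpud1. The UPR element was in 661 promoters (2.012%), including Hspa5, and the C/EBP-ATF element in 294 (0.895%), including Chac1 and Herpud1. In Hspa5 the ERSE match lay at bases -65 to -47 and the UPR element at -157 to -151 from the start. In Herpud1, ERSE-II lay at -52 to -42 and the C/EBP-ATF element at -112 to -105, and in Chac1 the C/EBP-ATF element lay at -193 to -186. A match describes letters and no binding was measured.

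Libraries held 682200 to 6504588 estimated counts, with a count in 11830 genes or more. The 34 genes together took 0.603 to 1.465% of a library's counts. Levels are given as CPM, counts scaled to a common library size with factors from the trimmed mean of M-values (TMM), which compares libraries for 1 gene, and as TPM, a share of transcripts that allows for gene length, where genes are compared with each other. A gene is said to have risen or fallen when edgeR's quasi-likelihood test gave a Benjamini-Hochberg adjusted p under 0.05 over 11889 genes. Trib3, a pseudokinase induced by ATF4, fell below the count filter and was not tested, which left 33 genes. Library titles carry 3 prefixes with well positions, called plates here although only 1 prefix uses that word. The 0 h plate held every library of 0 h and no other, so a change from 0 h to 1 h cannot be told apart from a difference between plates. On the shared plate, all fresh follicles after 0 h stood beside 5 vitrified follicles of 1 h, 7 of 4 h and 3 of 8 h. The vitrified-only plate carried the other vitrified follicles, 9 at 1 h and 9 at 8 h. Unless the vitrified-only plate is named, vitrified values after 0 h are from the shared plate. Groups filled separate rows of a plate, and rows and groups cannot be told apart. On the shared plate, sample numbers in the titles repeat between the 1 h rows of vitrified and fresh follicles, and between the fresh rows of 4 and 8 h. Whether these rows were sequenced together does not stand in the labels. As a check of the stimulus, 7 of 7 hCG-response genes, Areg, Ereg, Ptgs2, Star, Pgr, Cyp19a1 and Tnfaip6, rose at 1 h in both vitrified and fresh follicles.

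The libraries carried the transcripts of granulosa cells, the main cell type of a follicle, and these changed strongly over time. The summed level of 11 granulosa markers had medians of 89600, 120000, 78500 and 14600 CPM at 0, 1, 4 and 8 h in vitrified follicles, and 79300, 91700, 74200 and 12600 CPM in fresh follicles. Amh was at 0 in the 5 vitrified libraries of 1 h on the shared plate. Of the 10 markers tested, 9 fell at 4 h in vitrified and 8 in fresh follicles, where 25.9% and 24.5% of all genes fell. Their median log2 fold change from 1 h to 4 h was -4.01 in vitrified and -4.06 in fresh follicles. Most markers thus fell more deeply at 4 h than the sum did. The summed level of theca and stroma markers (12 genes) had medians of 2430, 1990, 287 and 247 CPM in vitrified follicles and 1270, 1450, 427 and 189 CPM in fresh follicles. Gene by gene, their median log2 fold change of vitrified minus fresh was -0.77 at 0 h, with 1 higher and 1 lower of 12. At 1 h it was -0.83, with no gene called. The higher vitrified sums at 0 h and 1 h therefore do not describe most of the list. Oocyte markers (14 genes) summed to between 2.36 and 265 CPM per library. Of 4 tested endothelial markers, 3 rose at 1 h in fresh and none in vitrified follicles, where 19% and 21.5% of all genes rose. Their median log2 fold changes were 1.54 and 1.27, so the call counts alone do not set the kinds apart. The 7 immune markers summed to at most 97.6 CPM. In whole follicles, fewer cells of a type and less RNA per cell cannot be told apart, and the part of these shifts in the changes below was not tested.

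At 0 h 3 chaperones were the most abundant of the 34 genes. Hspa5 led with 1275 ± 313 TPM in vitrified (SD, n = 15) and 1354 ± 382 TPM in fresh follicles (n = 18), before Calr, the calcium-binding chaperone calreticulin, with 747 ± 247 and 846 ± 213 TPM. Hsp90b1, which encodes GRP94, had 378 ± 154 TPM in vitrified and 443 ± 117 TPM in fresh follicles. Every pair of neighbours in this order overlapped in range at 0 h, in vitrified and in fresh follicles. Among the sensors, Eif2ak3 was at 0.179 and 0.192 TPM and Atf6 at 0.291 and 0.284 TPM in vitrified and fresh follicles. At 1 h Ppp1r15a, the stress-induced subunit that directs dephosphorylation of eIF2α, had moved to the second place with 1081 ± 227 TPM in vitrified (n = 5) and 1532 ± 372 TPM in fresh follicles (n = 6). Its range lay below that of Hspa5 in vitrified follicles and overlapped it in fresh follicles. At 4 h Atf4 was second, with 706.5 ± 62.2 TPM in vitrified and 684 ± 126 TPM in fresh follicles (n = 7 each), overlapping Calr in both.

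**Figure D1:**
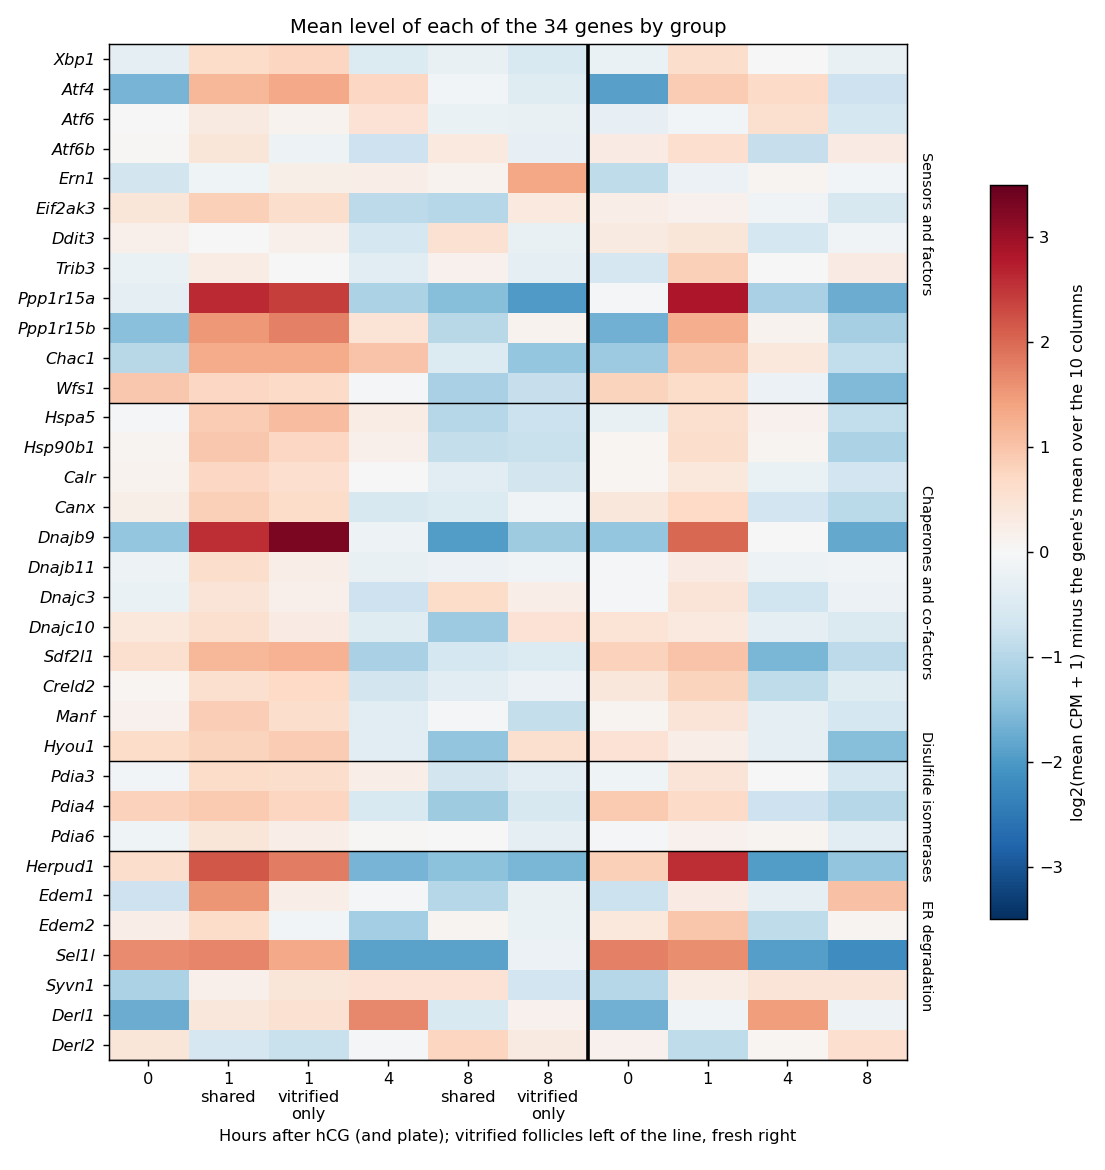
Mean level of each of the 34 genes in each group and plate, as log2(mean CPM + 1) minus the gene's mean over the 10 columns, with vitrified follicles left of the line and fresh follicles right. Most rows are red at 1 h and blue at 8 h, while Derl1 is reddest at 4 h and Derl2 is bluest at 1 h in both kinds of follicle.

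By 1 h the co-chaperone gene Dnajb9 and the PERK and eIF2α branch genes Chac1, Ppp1r15b, Ppp1r15a and Atf4 had the largest rises of the 33 in both kinds of follicle. In vitrified follicles 20 of 33 genes rose and 1 fell, with a median log2 fold change of 0.65 against -0.05 over all genes, of which 21.5% rose and 22% fell. In fresh follicles 15 rose and 1 fell, with a median of 0.38 against -0.11 over all genes, of which 19% rose and 23.1% fell. The 14 that rose in both made up 14 of the 20 and 14 of the 15. Beyond these, Calr, Canx, Dnajb11, Dnajc3, Manf and Pdia6 passed in vitrified follicles and Edem2 in fresh follicles, and no gene moved in opposite directions. With total counts alone, Calr (-0.001) and Pdia6 (-0.024) turned direction in vitrified follicles.

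Atf4, the transcription factor whose translation PERK favours, rose with log2 fold changes of 2.78 ± 0.15 in vitrified (adjusted p = 1.22e-28, edgeR's quasi-likelihood test) and 2.81 ± 0.14 in fresh follicles (adjusted p = 1.37e-31). Ppp1r15b, the constitutive paralogue of Ppp1r15a, rose by 3.01 in both. Ppp1r15a itself ran from 52.8 to 324 CPM (median 150.1) at 0 h in vitrified follicles, and was 1290, 1388, 1576, 1167 and 1090 CPM at 1 h, 63.7 to 130.2 CPM (median 96.8) at 4 h and 66.8, 57.5 and 97.6 CPM at 8 h. In fresh follicles it ran from 117 to 342 CPM (median 174) at 0 h, 1051 to 1859 CPM (median 1599) at 1 h and 70.6 to 127 CPM (median 94.7) at 4 h, and was 38.1, 82.5, 86 and 43.8 CPM at 8 h. Every 1 h library of either kind was above every library of the other times, those on the vitrified-only plate (734 to 1492 CPM (median 1127)) included. The log2 fold change at 1 h was 2.97 ± 0.20 in vitrified and 2.92 ± 0.19 in fresh follicles (adjusted p = 4.16e-23 and 4.8e-25, edgeR).

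Chac1 was close to the limit of detection. At 0 h it had no count in 7 of 15 vitrified and 9 of 18 fresh libraries, with maxima of 2.58 and 1.14 CPM. In vitrified follicles it was 2.48, 0.815, 14.1, 4.04 and 12.6 CPM at 1 h, ran from 1.45 to 14.1 CPM (median 2.42) at 4 h and was 1.24, 1.05 and 1.46 CPM at 8 h. In fresh follicles it ran from 1.25 to 9.56 CPM (median 4.32) at 1 h and 0.38 to 6.87 CPM (median 1.95) at 4 h, and was 1.96, 0.775, 0 and 0.184 CPM at 8 h. All 6 fresh libraries of 1 h stood above all 18 of 0 h, while 2 of the 5 vitrified libraries of 1 h lay within the 0 h range, which the vitrified-only plate also reached into (0 to 27.3 CPM (median 2.91)). The log2 fold change was 3.19 ± 0.59 in vitrified and 3.97 ± 0.63 in fresh follicles (adjusted p = 4.96e-06 and 1.29e-07, edgeR). Of the other genes of this branch with few counts, Ddit3, which encodes the pro-apoptotic factor CHOP, had log2 fold changes of -0.16 in vitrified and 0.17 in fresh follicles at 1 h, and Eif2ak3 had 0.50 and -0.11, and neither passed. Trib3, not tested, had at most 16 counts in any library. Xbp1 rose by 0.97 ± 0.13 and 0.86 ± 0.12, and Ern1 by 0.48 ± 0.20 and 0.68 ± 0.18, the vitrified call of Ern1 being lost without any 1 of 3 vitrified 1 h libraries (replicates 3, 4 and 5, log2 0.35 to 0.46) and its direction turning with total counts alone (-0.119). Atf6, its relative Atf6b and Wfs1, an ER membrane protein that restrains ATF6, did not pass at 1 h.

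Hspa5 was 1755 to 3083 CPM (median 2178) at 0 h in vitrified follicles, 3848, 4652, 4847, 4289 and 4281 CPM at 1 h, 1980 to 3556 CPM (median 2987) at 4 h and 1307, 1396 and 794 CPM at 8 h. Its fresh values were 1077 to 2744 CPM (median 2067) at 0 h, 2953 to 4047 CPM (median 3396) at 1 h, 1944 to 3140 CPM (median 2790) at 4 h and 1089, 1443, 1240 and 1386 CPM at 8 h. The 1 h libraries lay above all 0 h libraries of their kind, on the vitrified-only plate too (3134 to 6489 CPM (median 4823)), and the 8 h libraries on the shared plate lay below all 4 h libraries. At 1 h Hspa5 was 1.97-fold higher than at 0 h in vitrified (adjusted p = 5.81e-09, edgeR) and 1.78-fold higher in fresh follicles (adjusted p = 5.38e-08). Hsp90b1 rose by a log2 of 0.84 in vitrified and 0.54 in fresh follicles.

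Dnajb9, a BiP co-chaperone that also restrains IRE1, had the largest rise of the chaperone group. In vitrified follicles it was 13.1 to 38.6 CPM (median 19) at 0 h, 369.8, 373, 242, 375 and 377 CPM at 1 h, 23.3 to 82.5 CPM (median 50.8) at 4 h and 19.9, 11.8 and 10.6 CPM at 8 h. The fresh libraries held 13.4 to 30.7 CPM (median 21.7) at 0 h, 199 to 280.2 CPM (median 239) at 1 h, 38.5 to 87.2 CPM (median 54.3) at 4 h and 12.1, 21.2, 10.8 and 19.7 CPM at 8 h. The 1 h libraries were above all others of their kind, with 325 to 831 CPM (median 628) on the vitrified-only plate. Its log2 fold change at 1 h was 4.03 ± 0.18 in vitrified and 3.43 ± 0.17 in fresh follicles (adjusted p = 2.28e-34 and 1e-32, edgeR). Of the 12 chaperones and co-factors, 8 rose in vitrified and 3 in fresh follicles at 1 h with TMM scaling, and none fell, where 21.5% and 19% of all genes rose. The fresh count is near that share. The vitrified calls of Canx and Dnajc3 were lost without vitrified 1 h replicate 1, at a log2 of 0.33 and 0.49. Of the disulfide isomerases, Pdia3 rose in both kinds, by 0.73 in vitrified and 0.59 in fresh follicles, and Pdia4 in neither.

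Of the degradation genes, 4 of 7 rose and 1 fell in vitrified follicles at 1 h, where 21.5% of all genes rose and 22% fell. In fresh follicles 5 rose and 1 fell, where 19% of all genes rose and 23.1% fell. Herpud1, an ER membrane protein that gathers the degradation complex, was 20.9 to 46 CPM (median 30.5) at 0 h in vitrified follicles, 98.8, 91.3, 118, 73.6 and 95.6 CPM at 1 h, 2.9 to 11.2 CPM (median 5.25) at 4 h and 2.49, 6.84 and 11 CPM at 8 h. Fresh follicles gave 26.3 to 48.3 CPM (median 34.2) at 0 h, 84.7 to 149.9 CPM (median 131) at 1 h, 2.66 to 9.51 CPM (median 3.84) at 4 h and 4.45, 7.1, 9.29 and 7.73 CPM at 8 h. It was high at 1 h and low at 4 and 8 h, and neither the 1 h nor the 4 h libraries overlapped those of 0 h, though on the vitrified-only plate at 1 h it spanned 34.1 to 97.5 CPM (median 71.8), which reaches into the 0 h range. The log2 fold change at 1 h was 1.59 ± 0.17 in vitrified and 1.78 ± 0.16 in fresh follicles (adjusted p = 6.95e-13 and 4.64e-17, edgeR). Syvn1, the ubiquitin ligase HRD1, rose by 1.29 and 1.27, while Sel1l, its partner, had 0.08 and -0.14 and did not pass.

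The derlins, which form part of the channel for exported proteins, moved apart. Derl1 was 49.6 to 79.6 CPM (median 59.5) at 0 h in vitrified follicles, 308, 274, 244, 268 and 275 CPM at 1 h, 456 to 884 CPM (median 634) at 4 h and 177, 149.9 and 98.4 CPM at 8 h. Its fresh values were 47.8 to 85.9 CPM (median 62.7) at 0 h, 152 to 245 CPM (median 188) at 1 h, 334 to 733 CPM (median 585) at 4 h and 196, 189, 161 and 189 CPM at 8 h. The 4 h libraries were the highest of either kind and overlapped no other time. Derl2 was 9.01 to 17.4 CPM (median 13.1) at 0 h in vitrified follicles, 8.54, 5.3, 6.77, 4.45 and 5 CPM at 1 h, 7.28 to 11.7 CPM (median 9.72) at 4 h and 18.2, 13.9 and 18.4 CPM at 8 h. The fresh libraries held 7.19 to 16.5 CPM (median 10.3) at 0 h, 1 to 9.97 CPM (median 4.2) at 1 h, 4.55 to 17.4 CPM (median 11) at 4 h and 11.7, 16.3, 14.2 and 17.7 CPM at 8 h. Its 1 h libraries were the low ones, below all 0 h libraries in vitrified follicles and overlapping them in fresh follicles, and in both kinds overlapping those of 4 h. At 1 h Derl1 had log2 fold changes of 2.17 ± 0.13 in vitrified and 1.57 ± 0.12 in fresh follicles (adjusted p = 5.4e-26 and 7.93e-20, edgeR), and Derl2 of -1.11 ± 0.23 and -1.15 ± 0.23 (adjusted p = 4.28e-05 and 1.69e-05). At 4 h Derl1 rose by a further 1.29 ± 0.17 and 1.57 ± 0.16, and Derl2 by 0.62 ± 0.26 and 1.08 ± 0.26. The vitrified rise of Derl2 at 4 h was lost without vitrified 1 h replicate 2, 4 or 5 (adjusted p 0.0781 to 0.103).

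**Figure D2:**
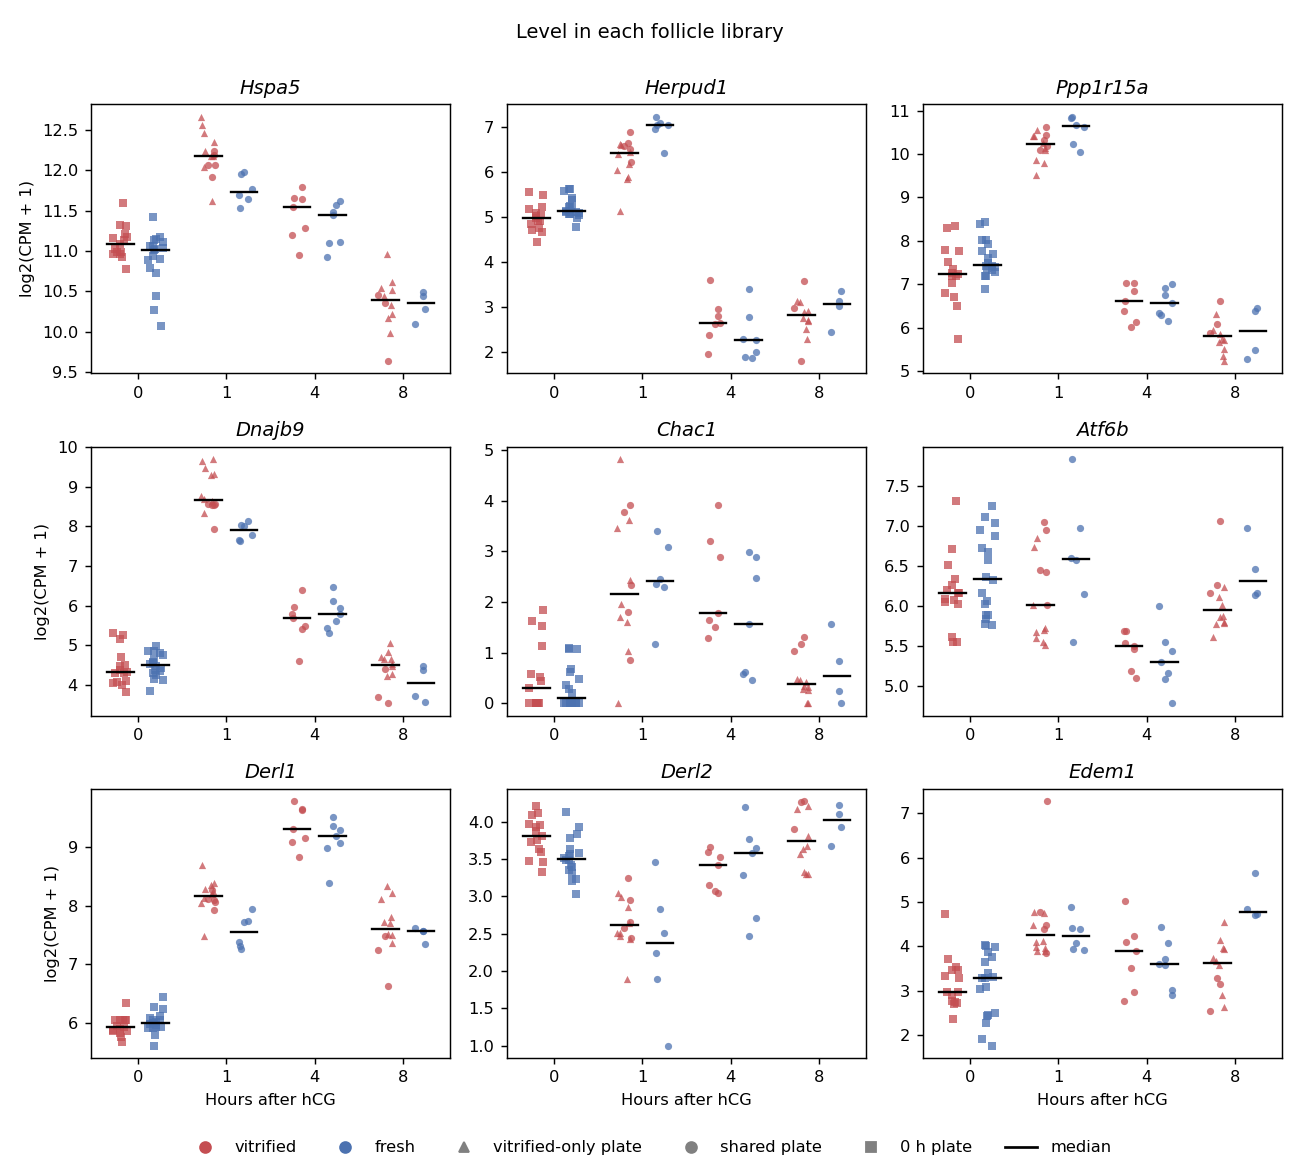
Level of 9 genes in each follicle library, as log2(CPM + 1) against hours after hCG, with vitrified follicles (red) left of fresh follicles (blue), marker shape for the plate and black bars for medians over all plates. Ppp1r15a, Herpud1 and Dnajb9 peak at 1 h, Derl1 peaks at 4 h and Derl2 is lowest at 1 h. Edem1 at 8 h is higher in the 4 fresh libraries than in the 12 vitrified ones, of which 9 are on the vitrified-only plate.

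The size of the 1 h and 8 h steps depended on the scaling. TMM factors were 0.98 to 1.31 at 0 h, 0.62 to 0.92 at 1 h, 0.71 to 0.98 at 4 h and 1.07 to 1.46 at 8 h. Scaled by total counts alone, the median of all genes shifted by -0.60 at 1 h in vitrified and -0.49 in fresh follicles, and 11 members rose and 4 fell in vitrified and 10 rose and 6 fell in fresh follicles. The share of all genes called was counted with TMM only, so these counts have none beside them. Read against the median of all genes, 30 of 33 members stood above it in vitrified and 26 in fresh follicles under either scaling. That count could hardly change, since such a change of scaling shifts all genes by nearly the same amount. By limma on the authors' log2(TPM + 1) values, 28 stood above it in vitrified and 26 in fresh follicles. At 8 h against 4 h, total counts in place of TMM shifted the median of all genes by 0.57 in vitrified and 0.63 in fresh follicles. The rises of Atf4, Ppp1r15a, Ppp1r15b, Chac1, Dnajb9, Herpud1 and Derl1 at 1 h kept their direction under every scaling tried.

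By 4 h all 12 chaperones and co-factors had fallen in both kinds of follicle. In all, 25 of 33 members fell and 2 rose in vitrified follicles, with a median log2 fold change of -1.04 against -0.11 over all genes, of which 25.9% fell and 20.6% rose. In fresh follicles 23 fell and 3 rose, with a median of -0.71 against -0.03, while 24.5% of all genes fell and 21.9% rose. The 22 that fell in both were 22 of the 25 and 22 of the 23, and Derl1 and Derl2 rose in both.

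The deepest falls were in degradation genes and in Ppp1r15a. Herpud1 had log2 fold changes of -4.00 ± 0.24 in vitrified and -4.82 ± 0.25 in fresh follicles (adjusted p = 1.03e-25 and 6.92e-30, edgeR), and Ppp1r15a of -3.73 ± 0.27 and -3.98 ± 0.27 (adjusted p = 2.93e-21 and 5.52e-23). Sel1l, which had not passed at 1 h, averaged 21.8 ± 3.07 CPM at 4 h against 276 ± 43.3 CPM at 1 h in vitrified (SD, n = 7 and 5), and 21.2 ± 8.36 against 258 ± 68.2 CPM in fresh follicles (n = 7 and 6), which is 12.62-fold and 12.14-fold lower. Edem2, a lectin that hands misfolded glycoproteins to degradation, fell by 1.98 and 1.99. Among the chaperones, Sdf2l1, a BiP-associated factor, fell by 2.64 in vitrified and 3.14 in fresh follicles, Dnajb9 by 2.77 and 2.06, Creld2 by 1.24 and 1.68, and Hspa5 by 0.63 and 0.43. Pdia4 fell by 1.46 and 1.40. Pdia6, with -0.37 in vitrified and -0.05 in fresh follicles, did not pass.

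Among sensors and factors, 7 of 11 fell at 4 h in vitrified follicles, where 25.9% of all genes fell. In fresh follicles 6 fell and 1 rose, where 24.5% of all genes fell and 21.9% rose. Atf4 stayed high, at 504 ± 54.1 CPM against 685 ± 132 CPM at 1 h in vitrified (SD, n = 7 and 5) and 491 ± 99.4 against 571 ± 98 CPM in fresh follicles (n = 7 and 6). Its log2 fold change of -0.44 in vitrified follicles passed only with all 5 vitrified 1 h libraries or without replicate 4 (adjusted p 0.0744 to 0.116 without replicate 1, 2, 3 or 5), and that of -0.22 in fresh follicles did not pass. Xbp1 fell by 1.13 and 0.63, Ppp1r15b by 1.04 and 1.17, and Wfs1 by 0.81 and 0.87. Atf6b was 45.8 to 157 CPM (median 70.6) at 0 h in vitrified follicles, 131, 122, 85, 63.5 and 86.4 CPM at 1 h, 33.3 to 50.8 CPM (median 44.3) at 4 h and 75.5, 70.3 and 132 CPM at 8 h. Fresh follicles gave 53.5 to 151 CPM (median 80.1) at 0 h, 45.8 to 227 CPM (median 94.8) at 1 h, 26.6 to 63.2 CPM (median 38.5) at 4 h and 124, 69.5, 70.4 and 87.3 CPM at 8 h. It was low at 4 h, where its vitrified libraries overlapped no shared-plate library of 1 or 8 h, and its fresh libraries overlapped those of 1 h but not of 8 h. Its log2 fold change at 4 h was -1.17 ± 0.27 in vitrified and -1.43 ± 0.26 in fresh follicles (adjusted p = 0.000156 and 2.7e-06, edgeR). Beside Atf4, Eif2ak3 (-2.54) and Edem1 passed as lower in vitrified follicles but not in fresh follicles, and Ddit3 (-1.57) as lower and Atf6 (0.70) as higher in fresh but not in vitrified follicles. None of these 5 steps was shown to differ between the kinds (adjusted p = 0.937, 0.622, 0.76, 0.953 and 0.835 for the difference, edgeR). The fall of Edem1 rested on vitrified 1 h replicate 4, without which its log2 fold change was -0.48 (adjusted p = 0.285).

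**Figure D3:**
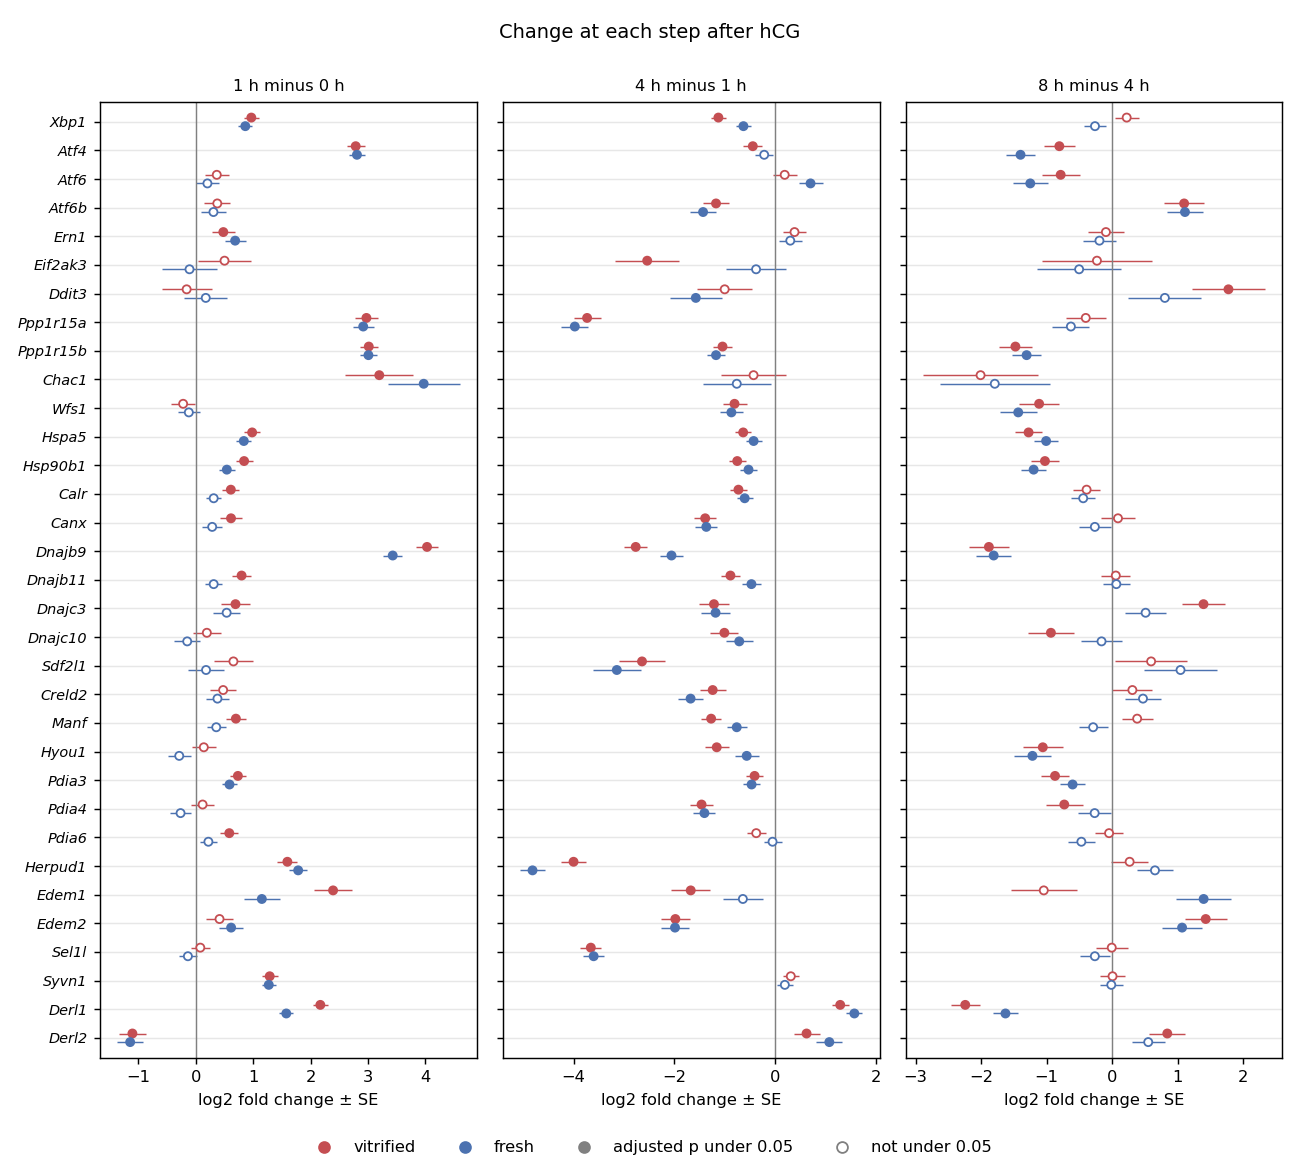
Log2 fold change (± SE) of the 33 tested genes at each step, vitrified in red above fresh in blue, with filled points for an adjusted p under 0.05 by edgeR. At 4 h against 1 h all 12 chaperones lie left of 0 in both kinds, while Derl1 and Derl2 lie to the right.

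From 4 h to 8 h, with TMM scaling, 12 members fell and 5 rose in vitrified follicles, where 15% of all genes fell and 22% rose, and the member median was -0.23 against 0.17 over all genes. In fresh follicles 10 fell and 3 rose, against 15.7% and 20.8% of all genes, with medians of -0.27 and 0.12. This split depended on the scaling. With total counts alone 4 fell and 14 rose in vitrified and 7 fell and 11 rose in fresh follicles. The median of all genes was then 0.73 in vitrified and 0.75 in fresh follicles. Shares of all genes called were counted with TMM only. The number below the median of all genes was 23 of 33 in vitrified and 24 in fresh follicles under either scaling. That number could hardly change, since such a change of scaling shifts all genes by nearly the same amount. By limma on the authors' log2(TPM + 1) values 4 fell and 10 rose in vitrified and 3 fell and 12 rose in fresh follicles, and 16 and 14 of 33 lay below the median of all genes.

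The genes that fell at 8 h in both kinds were Hspa5, Hsp90b1, Dnajb9, Hyou1, Pdia3, Atf4, Atf6, Ppp1r15b, Wfs1 and Derl1, the 10 of fresh and 10 of the 12 of vitrified follicles. Hspa5 was 2.42-fold lower at 8 h than at 4 h in vitrified (adjusted p = 5.97e-07, edgeR) and 2.01-fold lower in fresh follicles (adjusted p = 6.11e-06). Hyou1, a large chaperone that assists BiP, fell by 1.06 and 1.22, Dnajb9 by 1.88 and 1.81, and Derl1 by 2.24 and 1.63. Atf4 fell by 0.81 in vitrified, a call lost without vitrified 8 h replicate 1 or 2, and by 1.40 in fresh follicles. Pdia3 fell by 0.87 in vitrified and 0.61 in fresh follicles, but in fresh follicles it had 0.03 with total counts alone and 0.18 by limma on TPM, and the fresh call was lost without fresh 8 h replicate 1 (adjusted p = 0.052). Atf6b and Edem2 rose in both kinds, by 1.10 and 1.43 in vitrified and 1.11 and 1.07 in fresh follicles. Only 3 vitrified 8 h libraries are on the shared plate. Without replicate 3 the vitrified count was 9 lower and 2 higher, with the calls of Pdia4, Dnajc3, Dnajc10, Atf6, Atf6b, Derl2 and Hyou1 lost and Canx called as lower (log2 -0.81, adjusted p = 0.0258, edgeR).

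The interval from 1 h to 8 h was sampled on both later plates, free of the 0 h plate. In vitrified follicles on the vitrified-only plate 23 of 33 members were lower at 8 h and 2 higher, where 27.4% of all genes fell and 32% rose. On the shared plate 24 were lower and 1 higher in vitrified follicles (23.9% and 26.2% of all genes), and 22 lower and 1 higher in fresh follicles (23.6% and 26.2%). The lower genes of the vitrified-only plate shared 19 of their 23 with the 22 of fresh follicles and 20 of 23 with the 24 of vitrified follicles on the shared plate, with no opposite call. With total counts alone the counts were 16 lower and 9 higher on the vitrified-only plate, and 17 and 5 in vitrified and 15 and 5 in fresh follicles on the shared plate. By limma on TPM they were 10 and 11, 12 and 4, and 14 and 5 in that order. The share of all genes called was counted for neither. In the same order the median of all genes was 0.89, 0.76 and 0.67 with total counts. By limma it was 0.44, 0.34 and 0.31. Dnajb9 was 24.52-fold lower on the vitrified-only plate and 25.11-fold and 14.59-fold lower in vitrified and fresh follicles on the shared plate. Herpud1 was 12-fold, 13.32-fold and 17.91-fold lower, and Ppp1r15a 21.69-fold, 17.59-fold and 24.37-fold lower in the same order. Derl2 was higher in all 3, by 2.34-fold, 2.76-fold and 3.09-fold.

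The plates differed at 8 h. Between vitrified 8 h libraries of the vitrified-only plate (9) and the shared plate (3), 9 members were higher and 2 lower, with 23.4% of all genes called. At 1 h (9 and 5 libraries) only Edem1 was called, with 1.37% of all genes, and not without vitrified 1 h replicate 4 (log2 -0.16, adjusted p = 0.917). At 8 h Hyou1 averaged 78.2 ± 17.4 CPM on the vitrified-only plate and 19.5 ± 8.35 CPM on the shared plate, and Sel1l 71.3 ± 11.5 and 21.8 ± 2.82 CPM (SD, n = 9 and 3). Syvn1 went the other way, with 137 ± 11.8 and 314 ± 36.2 CPM. The other members called higher were Dnajc10, Eif2ak3, Ern1, Ppp1r15b, Dnajb9, Pdia4 and Derl1, by log2 0.69 to 2.19, and Manf was lower by 0.81. Of these calls, Pdia4, Dnajb9, Manf and Derl1 were lost without vitrified 8 h replicate 3, Dnajb9 and Eif2ak3 without replicate 2, and Pdia4 without replicate 1. For these genes the 8 h value of vitrified follicles is not one value, and what sets the plates apart was not tested.

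**Figure D4:**
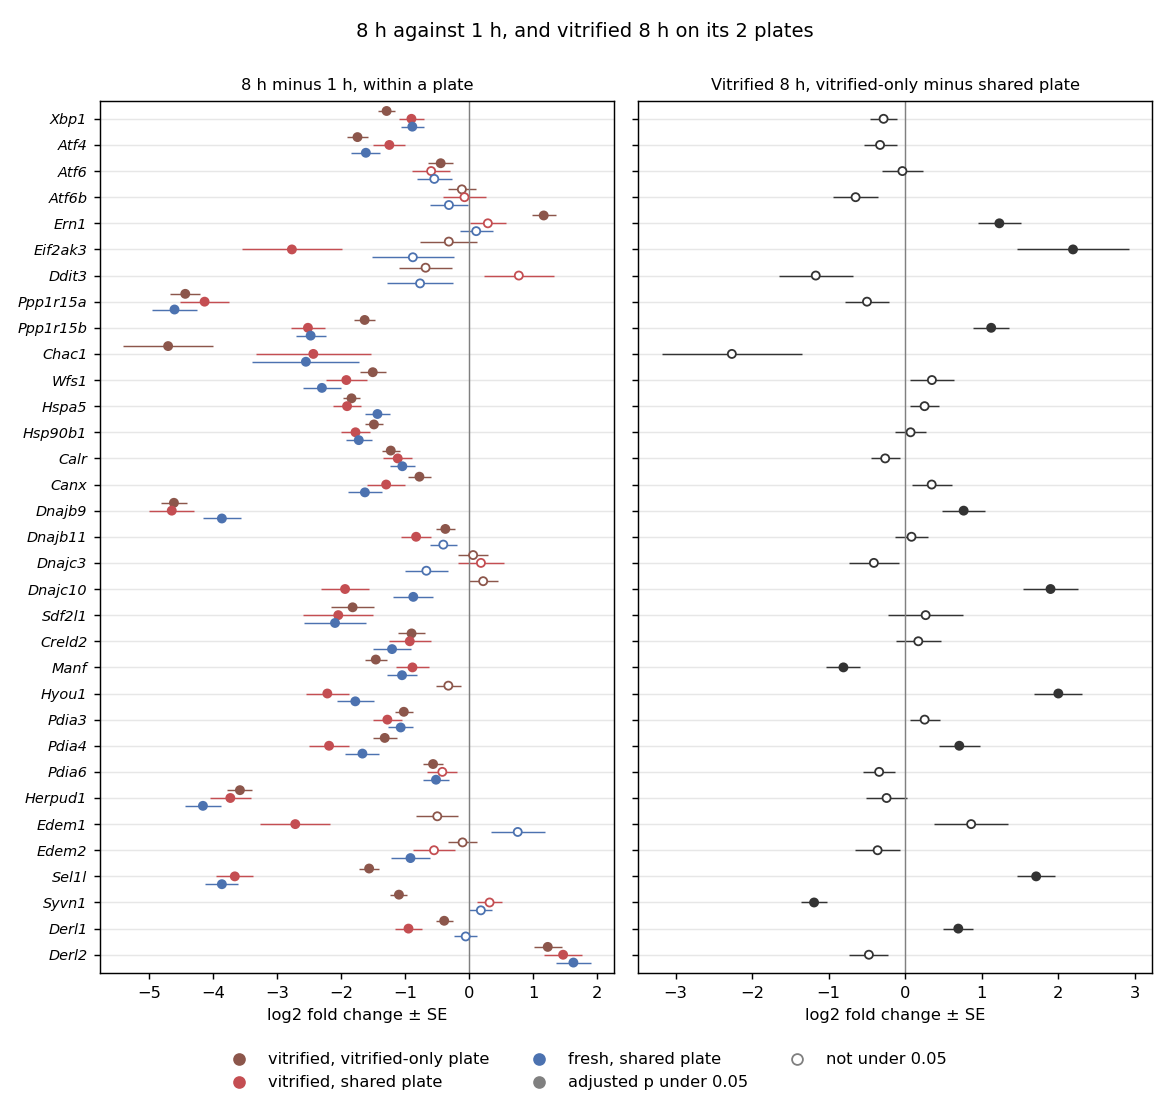
Left, log2 fold change (± SE) from 1 h to 8 h within a plate for vitrified follicles on the vitrified-only plate (brown) and on the shared plate (red) and for fresh follicles (blue). Right, vitrified 8 h libraries of the vitrified-only plate minus those of the shared plate, where Hyou1, Eif2ak3, Dnajc10 and Sel1l lie furthest to the right and filled points have an adjusted p under 0.05.

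Vitrified and fresh follicles were compared at each time, at 1, 4 and 8 h on the shared plate. At 1 h the vitrified libraries there were deeper, with 3478459 to 5597289 counts against 1719239 to 3049417 in fresh libraries. The part of depth was not tested. No member was called at 0 h, 1 h or 4 h by edgeR's quasi-likelihood test, where 0.959%, 0.555% and 0.118% of all genes were called. At an unadjusted p under 0.05 there were 3, 5 and 2 members, and DESeq2 called none at any of these times. The share of all genes at the unadjusted threshold was not counted, so these members are not shown to exceed it. By limma on TPM 8 members were lower in vitrified follicles at 0 h and none at 1 and 4 h. On that scale at 0 h the median was -0.29 over members and -0.12 over all genes. The share of all genes that limma called was not counted, so these 8 are not shown to be particular to the members. A missed threshold does not show equal levels, so the 95% intervals are given: they excluded a 2-fold difference in either direction for 32 of 33 members at 0 h, 27 at 1 h, 28 at 4 h and 21 at 8 h. Chac1 reached beyond it at every time. For Hspa5 the log2 difference was 0.18 ± 0.10 at 0 h, 0.33 ± 0.17 at 1 h, 0.12 ± 0.15 at 4 h and -0.15 ± 0.22 at 8 h, with intervals of -0.01 to 0.38, -0.01 to 0.67, -0.18 to 0.42 and -0.58 to 0.28. At 1 h 24 of 33 members lay above the median of all genes, 3 of the 5 with an unadjusted p under 0.05 being the chaperones Calr (0.36), Dnajb9 (0.56) and Hyou1 (0.57), with Edem1 (1.29) and Derl1 (0.52). Without vitrified 1 h replicate 3, Edem1 was called at 1 h (log2 1.53, adjusted p = 0.0402, edgeR).

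At 8 h Edem1, which extracts misfolded glycoproteins from the folding cycle, was the 1 member called, with 2.05% of all genes called. It was 8.71, 4.87 and 7.96 CPM in vitrified follicles on the shared plate, against 27.6, 25.1, 25.4 and 49.7 CPM in fresh follicles. On the vitrified-only plate it ran from 5.18 to 22.3 CPM (median 12.4). All 12 vitrified libraries of 8 h lay below all 4 fresh libraries. Of the 12, 9 were on the vitrified-only plate, which held no fresh follicles. At 8 h 23.4% of all genes were called between the plates, so only the 3 of the shared plate give a comparison within a plate. The log2 difference was -2.18 ± 0.55 (95% interval -3.27 to -1.09, adjusted p = 0.0147, edgeR), a 4.53-fold lower level in vitrified follicles. The call was lost without fresh 8 h replicate 4 or vitrified 8 h replicate 2 or 3 (adjusted p 0.0752 to 0.0934), and with an additive term for the vitrified-only plate (log2 -0.97, adjusted p = 0.433), a fit that called Sel1l in its place. Without vitrified 8 h replicate 1, Atf4 was called as well (log2 0.92, adjusted p = 0.0455).

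At the earlier times Edem1 ran from 4.17 to 25.7 CPM (median 6.87) at 0 h in vitrified follicles, was 20.1, 21.2, 13.5, 154 and 26.5 CPM at 1 h and ran from 5.8 to 31.7 CPM (median 14) at 4 h. In fresh follicles it ran from 2.4 to 15.4 CPM (median 8.78) at 0 h, 14 to 28.6 CPM (median 17.9) at 1 h and 6.54 to 20.6 CPM (median 11.2) at 4 h. The vitrified and fresh libraries overlapped at each of these times. From 4 h to 8 h its log2 fold change was -1.04 ± 0.51 in vitrified (adjusted p = 0.096) and 1.40 ± 0.41 in fresh follicles (adjusted p = 0.00527, edgeR), and the difference between these steps was -2.44 ± 0.66 (adjusted p = 0.0471, with 0.993% of all genes called). That difference was lost without any 1 of the 7 libraries of 8 h on the shared plate (adjusted p 0.058 to 0.194). No member was called for the difference of the 0 h to 1 h or the 1 h to 4 h steps, where 0.16% and 0.0421% of all genes were, with 4 members at an unadjusted p under 0.05 in each and none called by DESeq2. The share of all genes at the unadjusted threshold was not counted. These differences share libraries with the comparisons at single times.

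**Figure D5:**
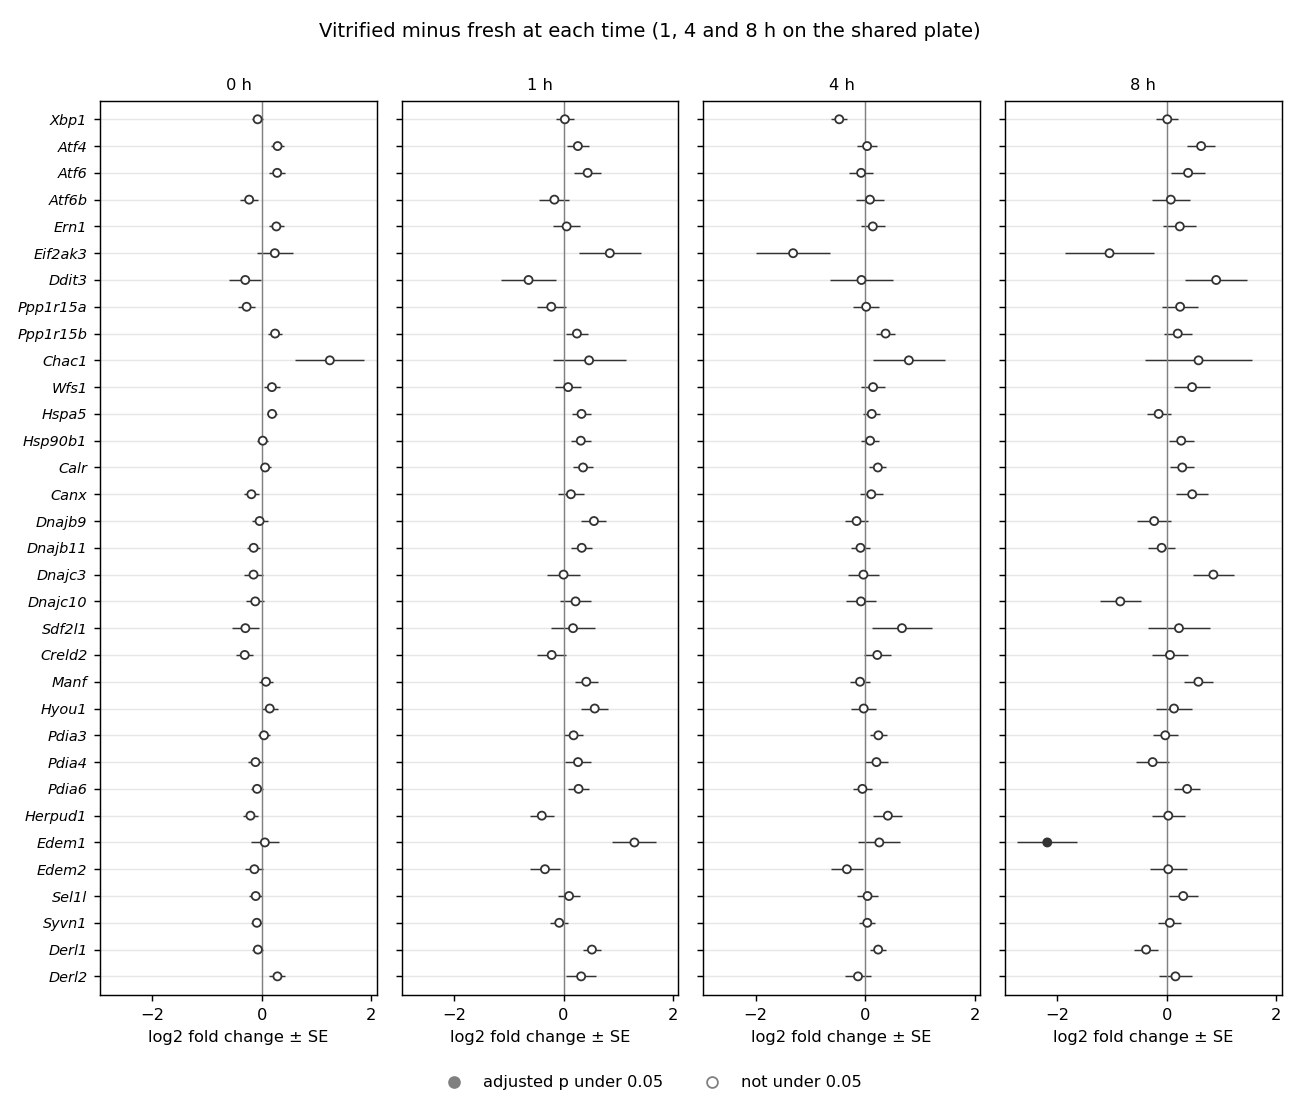
Vitrified minus fresh log2 fold change (± SE) of the 33 tested genes at 0, 1, 4 and 8 h after hCG, with a filled point for an adjusted p under 0.05. The filled point is Edem1 at 8 h, at -2.18.

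Follicles of 1 group also differed among themselves, and at 0 h, in the largest groups, the number of members that varied with Hspa5 depended on the scale. Pearson's r and Spearman's rho of log2 CPM were computed for 32 members in each of 2 groups, with permutation p-values adjusted over the 128 relations. In vitrified follicles (n = 15) 2 members passed by both measures, Pdia6 (r = 0.762, rho = 0.829, adjusted p = 0.00896 and 0.00277, permutation) and Xbp1 (r = 0.676). In fresh follicles (n = 18) 9 passed, which were Hsp90b1, Pdia4, Pdia6, Calr, Dnajb11, Sdf2l1, Creld2, Manf and Xbp1. On log2(TPM + 1) 20 passed in vitrified and 17 in fresh follicles, so the 2 kinds are not shown to differ in this. On that scale Hspa5 had r = 0.738 in vitrified and 0.535 in fresh follicles with the log2 total count. The gene Gm10800 took 17.31 to 53.04% of TPM in vitrified and 13.16 to 43.57% in fresh libraries of 0 h. Its part in the TPM counts was not tested. On log2 CPM, by Pearson's r alone, Ddit3 passed as negative in vitrified (r = -0.728, rho = -0.618, adjusted p = 0.0124 and 0.0698, permutation) and Syvn1 in fresh follicles (r = -0.606, rho = -0.521, adjusted p = 0.0388 and 0.103, permutation). In fresh follicles Pdia4 was closest, with r = 0.892 and rho = 0.897 (adjusted p = 0.000256 for both, the smallest the permutations gave after adjustment). Its r was 0.868 without the 2 fresh follicles farthest from the median of Hspa5. Without those 2 fresh follicles, r was 0.856 for Calr (0.86 with them) but 0.438 for Creld2 (0.763 with them), 0.489 for Xbp1 and 0.513 for Pdia6. In vitrified follicles Pdia4 had r = 0.522 (adjusted p = 0.169, permutation) and did not pass. Without the 2 farthest vitrified follicles, r was 0.724 for Pdia6 and 0.552 for Xbp1. Dnajb9 (r = 0.002), Herpud1 (-0.146) and Atf4 (0.214) did not pass in fresh follicles. On log2 CPM, Hspa5 itself had r = 0.235 in vitrified and 0.46 in fresh follicles with the log2 total count. Some members that passed had a higher r with it, among them Pdia6 in vitrified (0.646) and Xbp1 in fresh follicles (0.656). The part of depth in these relations was not tested, and whether these follicles shared animals is unknown.

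Genes of neighbouring pathways were counted from lists drawn up for this purpose with earlier results of these data known. Of 13 tested targets of ATF4 and CHOP, 8 rose and 1 fell at 1 h in vitrified and 8 rose in fresh follicles, where 21.5% and 19% of all genes rose. At 4 h 6 rose and 1 fell in vitrified, and 7 rose and 2 fell in fresh follicles, where 20.6% and 21.9% of all genes rose. The list medians were 1.66 and 1.16 at 1 h, against -0.05 and -0.11 over all genes, and 1.28 and 1.99 at 4 h, against -0.11 and -0.03. Atf3, a stress-induced transcription factor, had log2 fold changes of 6.82 in vitrified and 5.64 in fresh follicles at 1 h and -5.04 and -4.67 at 4 h. Asns, asparagine synthetase, rose by 1.81 and 2.03 at 1 h and by 3.71 and 3.93 at 4 h, and Psat1, an enzyme of serine synthesis, rose by 4.57 and 5.41 at 4 h. At 8 h 2 rose and 3 fell in each kind, where 22% and 20.8% of all genes rose and 15% and 15.7% fell. The list medians were then -0.08 in vitrified and -0.14 in fresh follicles, against 0.17 and 0.12 over all genes. Ddit4, an inhibitor of mTORC1 signalling, rose by 3.44 and 3.54 at 8 h.

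At 4 h 20.6% of all genes rose and 25.9% fell in vitrified follicles and 21.9% rose and 24.5% fell in fresh follicles, with medians of -0.11 and -0.03, and several of the list counts lay near those shares. Of 18 tested genes of protein entry into the ER (translocon and signal peptidase), 6 rose and 1 fell at 4 h in vitrified as in fresh follicles (medians 0.26 and 0.23), and at 8 h 7 fell in both, with 1 rising in fresh follicles, where 15% and 15.7% of all genes fell. Sec61a1, the pore of the translocon, rose by 1.39 and 1.26 at 1 h, rose by a further 0.59 and 0.68 at 4 h, and fell by 0.75 and 0.91 at 8 h. Of 15 COPII genes, which carry cargo out of the ER, 8 rose and 1 fell at 4 h in vitrified and 6 rose and 1 fell in fresh follicles (medians 0.39 and 0.37). Sec24b, a cargo-binding coat subunit, rose by 1.88 in both, while the cargo receptor Lman1 fell by 1.70 and 1.37. Of 18 further folding enzymes, 11 fell and 2 rose at 4 h in vitrified, and 7 fell and 1 rose in fresh follicles (medians -0.59 and -0.42). Tmx1, a membrane-bound thioredoxin-like enzyme, rose by 3.10 and 2.83. Of 12 N-glycosylation genes 6 fell at 4 h in each kind, with 1 rising in vitrified and 3 in fresh follicles (medians -0.45 and -0.33). Of 18 tested further degradation genes 9 fell and 4 rose in vitrified and 6 fell and 6 rose in fresh follicles at 4 h (medians -0.41 and -0.15). Ube2j1, the ubiquitin-conjugating enzyme of the ER membrane, rose by 3.40 and 3.49 at 1 h. Of 10 tested eIF2 kinases, CREB3-like factors and site proteases, 2 rose and 5 fell at 4 h in vitrified, and 2 rose and 3 fell in fresh follicles (medians -0.43 and -0.27), the fresh counts being close to the shares over all genes. Creb3l2, a membrane-bound factor of the secretory pathway, fell by 1.94 and 1.75 at 4 h. Of these lists the 1 member called between vitrified and fresh follicles at 0 h was Sesn2 (0.69), and none was at 1 or 4 h. At 8 h 6 were lower in vitrified follicles, among them the folding enzyme Txndc5 (-1.28), where 207 of 11889 genes were lower. They were 2 of 18 folding enzymes, 2 of 18 degradation genes, 1 of 18 genes of ER entry and 1 of 12 N-glycosylation genes. That comparison rests on 3 vitrified and 4 fresh libraries.

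Some counts may mix genes. The libraries do not mark strand, and exons of Derl2 share 231 bases with Mis12, those of Hsp90b1 415 bases with 1810014B01Rik, those of Ppp1r15b 640 bases with Gm26616, those of Eif2ak3 485 bases with Gm43292, and those of Manf, Syvn1 and Ddit3 146, 91 and 68 bases with Dcaf1, Mrpl49 and Mars, so these genes are uncertain to that extent. Values of Hspa5 were not whole in 79 of 83 libraries, of Calr in 72, of Derl1 in 70 and of Hsp90b1 in 66. The labels do not say how the authors' counting assigned parts of reads, so these levels are uncertain to that extent.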

How the data were processed

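Single-follicle RNA was amplified by Smart-Seq2 and made into unstranded paired-end Nextera XT libraries, per the labels' protocols, with no molecular identifiers given. The submitters' processing notes name Partek, Bowtie2, HISAT2, DESeq2 and mm10 without versions or roles. The authors deposited a table of estimated counts per gene with no scaling, and 15.4% of its values are not whole. A second deposited table holds the authors' log2(TPM + 1) values, from which TPM was recovered. Within a library 1 gene, Gm10800, took 4.02 to 53.04% of TPM, so TPM was used to rank genes within groups and in 1 alternative.

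Counts were rounded, filtered (filterByExpr, minimum count 10), scaled by TMM and fitted with 10 group-by-plate means by robust quasi-likelihood in edgeR 4.0.16 (R 4.3.3), with Benjamini-Hochberg adjustment over 11889 genes and a threshold of 0.05. CPM values are TMM-scaled. The script was tested on simulated data, where small changes were mostly missed. For vitrified minus fresh at 8 h it called 2 of 50 simulated 2-fold changes, 25 of 50 of 4-fold and 40 of 50 of 8-fold. For fresh 4 h minus 1 h it called 10 of 50 of 2-fold and 42 of 50 of 4-fold. Alternatives were DESeq2 1.42.0, its size factors in edgeR, total counts alone, limma 3.58.1 on log2(TPM + 1), no low-count filter, fits of the compared libraries only, an additive plate term, and leaving out libraries. Correlations used 100000 permutations (scipy 1.17.1). Among 406 pairs of libraries of the same group and plate, chi-square per degree of freedom of the counts was 1.97 to 114.3, so none was treated as 1 library deposited again.

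The 34 members, the other gene lists and the tests were chosen with earlier results of these data known. Values by library are given for Hspa5, for the 2 members that changed most in each direction in each step of fresh follicles, and for members called between vitrified and fresh follicles. All members are accounted for, and the other lists give at most 3 genes each per step. Gene positions are from GENCODE vM21 on GRCm38 and promoters from RefSeq. Precision is limited by 3 to 18 libraries per group and plate, and by depths of 682200 to 6504588 counts.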

Additional observations from a re-analysis of the deposited data

Results flagged for a closer look

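Outliers were looked for among the 9 genes given by library, in 63 combinations of gene, group and plate with 4 to 10 libraries, and 4 were found, where chance flags about 1 in 20. For Chac1, vitrified 1 h replicate 13 on the vitrified-only plate stood apart at 27.3 CPM, against a median of 2.59 CPM in the other 8. For Dnajb9, vitrified 1 h replicate 3 on the shared plate was low at 242 CPM, against 374 CPM. For Edem1, fresh 8 h replicate 4 was high at 49.7 CPM, against 25.4 CPM, and vitrified 1 h replicate 4 was high at 154 CPM, against 20.7 CPM. The change of Edem1 from 4 h to 8 h was called as different between vitrified and fresh follicles, by a log2 fold change of -2.44. That call was lost without any 1 library of 8 h on the shared plate (adjusted p 0.058 to 0.194, edgeR). Without fresh 8 h replicate 4, flagged above, the difference was -2.135 (adjusted p = 0.166, edgeR). Causes were not tested.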

How the results depend on the processing

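No paired analysis was possible because the labels give no replicate numbers that pair libraries across groups. Of 207 called changes of members, 201 kept direction and call under DESeq2 and 201 under its size factors, 194 without a low-count filter, 194 with only the libraries compared, 158 with total counts alone and 139 by limma on log2(TPM + 1), and 184 of 195 with an additive plate term. With total counts alone, 6 members were lower at 1 h in fresh follicles, 11 higher and 4 lower at 1 h in vitrified follicles, 14 higher and 4 lower at 8 h against 4 h in vitrified and 11 higher in fresh follicles, and 9, 5 and 5 higher at 8 h against 1 h (vitrified-only plate, vitrified and fresh on the shared plate). By limma, 10 were higher and 4 lower at 8 h against 4 h in vitrified, 12 higher and 3 lower in fresh follicles, 11 higher and 10 lower, 4 and 12, and 5 and 14 at 8 h against 1 h in the same order, 8 lower in vitrified than in fresh follicles at 0 h, and 0 different between plates at 1 h. Rises at 4 h in vitrified follicles numbered 1 without the filter and 1 with only the libraries compared. Shares of all genes called were not counted under these alternatives. Higher members at 8 h against 1 h numbered 2 in fresh follicles with only the libraries compared and 2 in vitrified follicles on the shared plate with the plate term. The difference of the 4 h to 8 h steps had 0 calls with DESeq2's size factors, without the filter and with the plate term. The plates at 1 h differed in 2 members by DESeq2 and 2 with its size factors, and in 0 with only the libraries compared. On log2(TPM + 1), 20 members varied with Hspa5 in vitrified and 17 in fresh follicles.

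Called directions turned round in these cases, with the cause not tested. With total counts alone Pdia6 (-0.024), Calr (-0.001) and Ern1 (-0.119) did so at 1 h in vitrified follicles, Pdia3 (0.032) at 8 h against 4 h and Pdia6 (0.121) at 8 h against 1 h in fresh follicles, and on the vitrified-only plate at 8 h against 1 h Pdia6 (0.213), Canx (0.008), Dnajb11 (0.419), Atf6 (0.349) and Derl1 (0.396). By limma on TPM, Pdia3 (0.181) did so at 8 h against 4 h and Pdia6 (0.237) at 8 h against 1 h in fresh follicles, Dnajb11 (0.101), Creld2 (0.011), Manf (0.028) and Xbp1 (0.014) in vitrified follicles on the shared plate, and Pdia3 (0.044), Pdia6 (0.508), Canx (0.292), Dnajb11 (0.676), Creld2 (0.234), Atf6 (0.156) and Derl1 (0.64) on the vitrified-only plate. With the plate term Dnajc10 had 0.251 at 8 h against 4 h in vitrified follicles.

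Leaving out 1 library at a time gave 2 to 5 rises at 8 h against 4 h and 1 to 2 at 4 h in vitrified follicles, 0 to 1 calls between vitrified and fresh follicles at 1 h and 0 to 2 at 8 h, 0 to 0 for the difference of the 4 h to 8 h steps, and 0 to 2 between plates at 1 h. Without vitrified 1 h replicate 3 the call at 1 h was Edem1 (adjusted p = 0.0402, edgeR), and without vitrified 8 h replicate 1 the calls at 8 h were Atf4 and Edem1. Depth limits Trib3, Chac1, Ddit3 and Eif2ak3, which had few counts.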
